A study of Drosophila melanogaster with 2 samples.

Results

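The genes described here were u-shaped (ush), cabut (cbt), serpent (srp), pannier (pnr), lozenge (lz), glial cells missing (gcm), gcm2 and Hemolectin (Hml), 8 of 13945 protein-coding genes on the main chromosome arms of Drosophila melanogaster. They were chosen by name, with the strength of the summit in an ush intron near cbt already known from these same peak lists, so their peak counts and ranks are descriptions and carry no test. The measurement was ChIP-seq of Abd-B, a Hox transcription factor of the posterior abdomen, in whole embryos of 4 to 20 h. The line stably expressed Abd-B with GFP at its C-terminus, chromatin was precipitated with an antibody against GFP, and 1 group of 2 biological replicates was made, with no other genotype, treatment or stage. Nothing in the labels limits the tagged protein to one cell type, and the peak lists hold no expression values, so the hemocyte content of the embryos was not measured.

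These genes meet in the control of blood cells and of the dorsal ectoderm. GATA factors are zinc finger proteins that bind the word GATA. The protein encoded by srp starts hemocyte development, and that encoded by pnr patterns the dorsal ectoderm and the heart. The product of ush is a multi-zinc-finger protein of the Friend of GATA family, which binds GATA factors and changes or blocks their action. The Runx factor encoded by lz directs crystal cells, gcm and gcm2 act in plasmatocytes and in glia, and Hml is a clotting protein used as a plasmatocyte marker. The zinc finger factor encoded by cbt acts in dorsal closure, where cells signal through the kinase JNK, and in the response to dietary sugar.

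Among the 8 genes, Abd-B-GFP summits lay most densely around ush and cbt, and the strongest of them stood in an ush intron upstream of cbt. A peak is a stretch of enriched DNA, its summit is the base of highest signal, and each peak carries a signal value on the authors' own scale, which ranks peaks within a list only. The authors kept 5033 peaks by the irreproducible discovery rate (IDR), a measure of agreement between replicates, and these form the IDR list. They were also the 5033 strongest peaks of the list pooled from both replicates, so each has the same rank in both lists. Each gene was taken with 10 kb on either side, called its territory below. The territories held 27 distinct IDR summits, of which ush had 18 and cbt, which lies inside ush, had 10 of those same 18. The other genes had 9 together. At least 1 lay in 7 of the 8 territories, beside 64.8% of all protein-coding genes, and with no flank this was so for ush, cbt and gcm2 alone (3 of 8, beside 11.4%). The strongest of the 27 was the second highest peak of the genome in the IDR list and in both replicates, and srp had none.

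The sequences around selected summits are printed here from the RefSeq Release 6 genome, the same build as dm6. The motif matches given later for these windows can be read on them. No window is printed for gcm2 or for the ush TSSs. Each window runs 100 bases on either side of the summit, plus strand, 5′ to 3′. Capitals mark matches, on either strand, to any of the words searched: the Abd-B forms TTTATTG and TTTATGG, the Hox core TAATTA, the GATA words GATAA and GATAG, the DREF word TATCGATA, the Runx word TGTGGT, the GAGA word GAGAG and the E-box CAGCTG. A match is a description of letters and not a bound site. The first pair come from the ush and cbt locus, the strongest summit at chr2L:480988-481188 and the cbt promoter at chr2L:479966-480166. The others are the pnr promoter at chr3R:16025856-16026056, the summit between c11.1 and lz at chrX:9283139-9283339, the strongest summit in the gcm territory at chr2L:9569983-9570183 and the Hml promoter at chr3L:13845377-13845577.
ush intron: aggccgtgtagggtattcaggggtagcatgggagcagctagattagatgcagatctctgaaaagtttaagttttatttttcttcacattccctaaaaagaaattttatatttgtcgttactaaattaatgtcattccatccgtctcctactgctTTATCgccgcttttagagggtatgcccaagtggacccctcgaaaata
cbt promoter: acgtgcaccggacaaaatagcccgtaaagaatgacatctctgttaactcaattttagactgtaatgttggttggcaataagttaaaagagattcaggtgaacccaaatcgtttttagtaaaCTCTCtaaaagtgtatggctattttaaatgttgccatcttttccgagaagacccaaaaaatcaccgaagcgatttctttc
pnr promoter: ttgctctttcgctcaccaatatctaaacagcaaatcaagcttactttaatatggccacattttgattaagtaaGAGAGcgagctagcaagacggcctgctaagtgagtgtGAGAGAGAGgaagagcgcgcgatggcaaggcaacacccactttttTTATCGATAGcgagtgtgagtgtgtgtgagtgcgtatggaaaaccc
lz upstream: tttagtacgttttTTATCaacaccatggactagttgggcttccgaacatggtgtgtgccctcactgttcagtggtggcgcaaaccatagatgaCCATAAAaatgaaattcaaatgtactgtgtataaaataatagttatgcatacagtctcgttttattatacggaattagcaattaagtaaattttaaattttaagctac
gcm territory: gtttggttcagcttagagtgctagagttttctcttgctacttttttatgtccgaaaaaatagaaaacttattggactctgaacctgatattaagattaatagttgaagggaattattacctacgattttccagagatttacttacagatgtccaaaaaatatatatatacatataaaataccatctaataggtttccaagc
Hml promoter: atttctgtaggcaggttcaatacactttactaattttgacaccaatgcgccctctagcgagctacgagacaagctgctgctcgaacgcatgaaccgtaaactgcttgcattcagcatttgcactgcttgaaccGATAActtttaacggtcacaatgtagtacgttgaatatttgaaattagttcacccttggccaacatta

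The strongest summit lay in an intron of ush, upstream of cbt, which is read in the opposite direction. Its IDR peak spanned 387 bp, and its summit at base 481088 was 1400 bp upstream of the cbt transcription start site (TSS) and 4868 bp downstream of the first ush TSS. The signal value was 3752 in the pooled list, 1308 in replicate 1 and 2452 in replicate 2. In each list that was the rank 2 peak. The peaks ranked on either side of it had signal values of 5202 and 3524 in the pooled list, 1942 and 1239 in replicate 1, and 3275 and 2295 in replicate 2. The ush summit therefore stood closer to the peak below it than to the peak above it in all 3 lists. The replicate summits lay at bases 481079 and 481085, 9 and 3 bp from the IDR summit. The −log10 q-value of 3.82 was the highest in the IDR list but was shared by 3273 peaks, so only the signal value sets this rank. In whole embryos, more cells with bound protein and more protein bound per cell cannot be told apart.

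**Figure D1:**
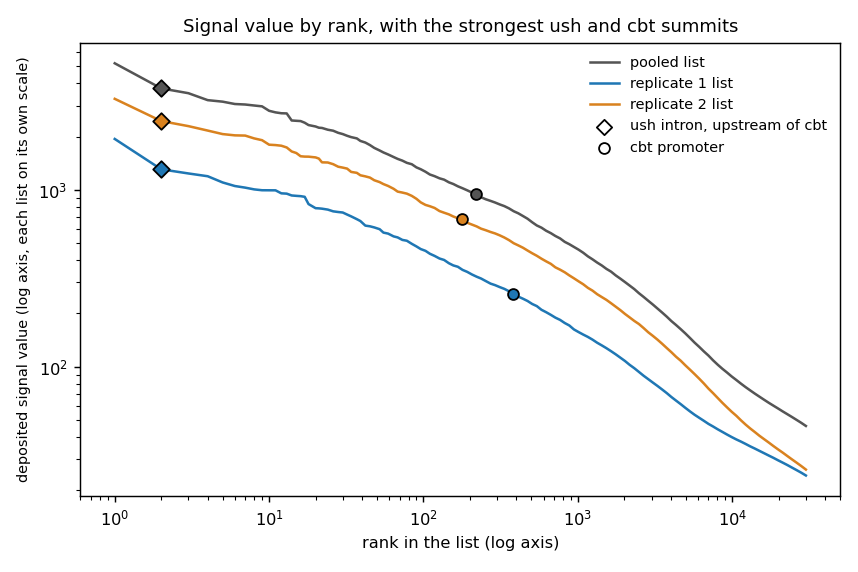
Deposited signal value against rank for the pooled list and both replicates, log axes, each list on its own scale. Diamonds mark the ush intron summit, at rank 2 in every list, and circles the cbt promoter summit, at ranks 218, 379 and 178.

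The gene ush (FBgn0003963) covers chr2L:476220-540560 on the plus strand and has 4 annotated TSSs. Its longest intron, of 49060 bp, holds all of cbt (FBgn0043364, chr2L:476446-479688, minus strand, 1 TSS), the strongest summit and all 13 IDR summits inside ush. The summits were crowded towards the 5′ end. The 10 kb before the first ush TSS held 4 IDR summits, the 14615 bp from the first to the second TSS held 7, and the 32631 bp from there to the third TSS held 6. Per 100 kb these were 40.0, 47.9 and 18.4 summits. The last 17095 bp of the gene, from the third TSS to its end, held 0 IDR summits and 11 pooled ones. The 3′ side of the territory held 1, in an exon of lwr, which encodes the SUMO-conjugating enzyme.

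Around cbt itself the IDR summits formed a row. The cbt promoter summit, at base 480066 and 378 bp upstream of the TSS, had rank 218, with rank 379 in replicate 1 and 178 in replicate 2. Its signal value was 942.5 in the pooled list, 258.8 in replicate 1 and 681.7 in replicate 2. Next to it lay a summit in the cbt exon, 769 bp downstream of the TSS, with rank 1866, and one 2263 bp upstream with rank 1895. Replicates 1 and 2 gave ranks 1530 and 2300 to the exonic summit and 2197 and 1883 to the upstream one. A weaker summit 4669 bp upstream had rank 4889 and differed more between the replicates, at ranks 2973 and 7822. The cbt promoter summit had 4 IDR summits within 2 kb, itself included, and 57 of all 5033 IDR summits (1.13%) had at least as many. A summit of rank 949, nearest to CG4297, also had 4. The rank 2 summit had 3, and 345 of all IDR summits (6.85%) had at least as many. This count of close summits was added after the data had been seen.

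The first ush TSS had no IDR summit within 1 kb, and the nearest lay 2699 bp downstream, in the cbt exon. The summits within 1 kb of later ush TSSs were weaker than that at the cbt promoter. An IDR summit 556 bp upstream of the second ush TSS, in an exon of another ush transcript, had rank 1945, with ranks 1523 and 2348 in replicates 1 and 2. It lay at the same distance from the start of a noncoding RNA gene, lncRNA:CR46258. The summit 605 bp upstream of the third ush TSS had rank 4818, with ranks 4271 and 4923. The intronic summit 2636 bp upstream of that TSS was stronger, at rank 619, with ranks 1200 and 498. Between the second and the third TSS lay also summits of ranks 2426, 2512, 1992 and 4930. Those of ranks 1992 and 4930 were uneven between the replicates, at 4997 and 1404 for the former and 7707 and 4524 for the latter.

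Upstream of ush, 4 IDR summits of its territory lay nearest to CG4297. Their ranks were 949, 1081, 2429 and 3065. The one of rank 1081 lay 263 bp upstream of a CG4297 TSS and also within 1 kb of a TSS of MED15, a Mediator subunit gene. The one of rank 949 had ranks 1474 and 772 in replicates 1 and 2, and that of rank 3065 had ranks 6740 and 2432. Of the 18 summits in the ush territory, 5 had a TSS of cbt as the nearest annotated TSS and 5 a TSS of ush, while 2 others were as near to a ush TSS as to that of lncRNA:CR46258.

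**Figure D2:**
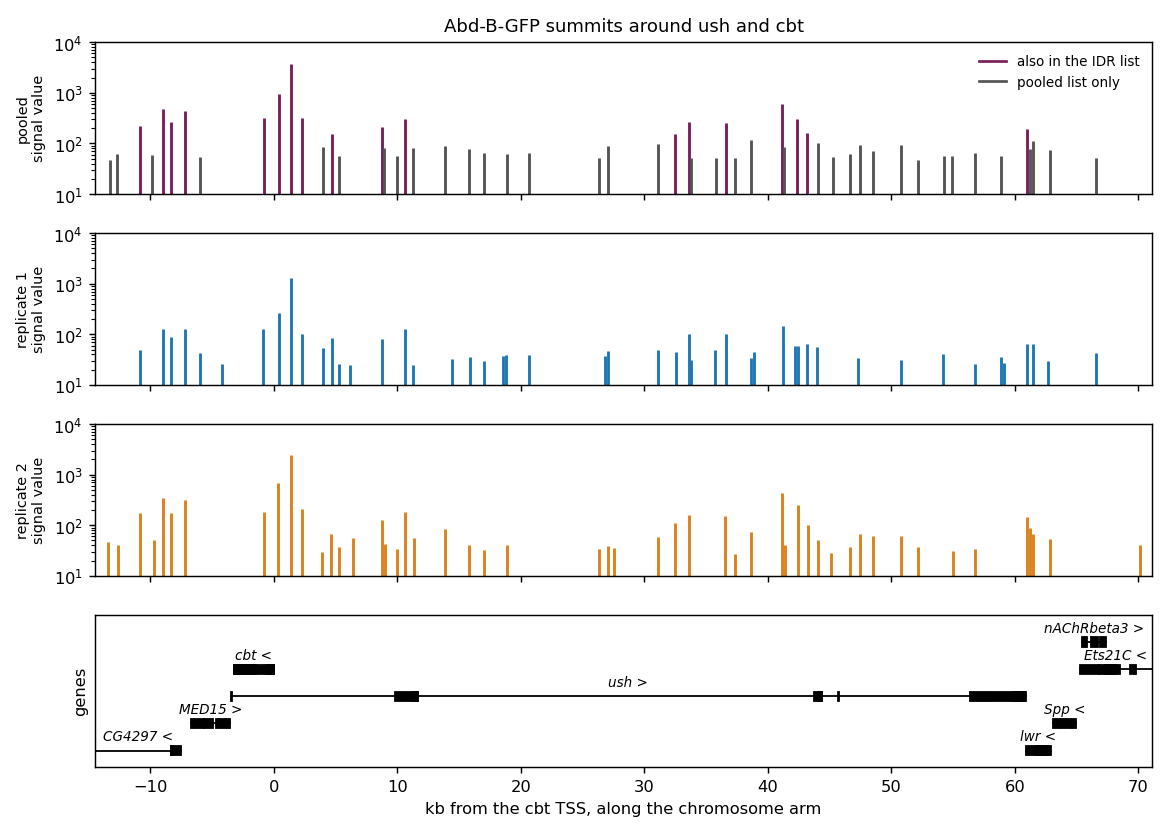
Signal value (log axis) of every summit around ush and cbt in the pooled list and both replicates, by distance in kb from the cbt TSS, over the gene models (boxes exons, arrowheads direction). Purple lines are pooled summits also in the IDR list. The tallest line in each list is the summit 1400 bp upstream of cbt.

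Few genes carried as many summits. Over all protein-coding genes the median territory held 1 IDR summit, and 3 genes had more than ush: kirre with 27, and CG1677 and hth with 19 each. A territory at least as long as that of ush was found for 198 genes, ush included, with a median of 2 IDR summits. Of these genes 4 (2.02%), ush again included, had 18 or more. Per length, cbt had 43.0 IDR summits per 100 kb, the highest of all 13945 territories. The value for ush was 21.3, and 249 genes were denser. The place of cbt depended on the flank: 6 genes were denser with 5 kb on either side, 14 with 20 kb and 320 with none. The 8 territories merged into 7 stretches with 9.74 IDR summits per 100 kb, beside 3.76 for the main arms as a whole. This density rests largely on ush. Of the 277322 bp in the stretches, the ush territory made up 84341 bp and held 18 of the 27 summits, and the rest held 9. These counts describe genes picked in part for this pattern.

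**Figure D3:**
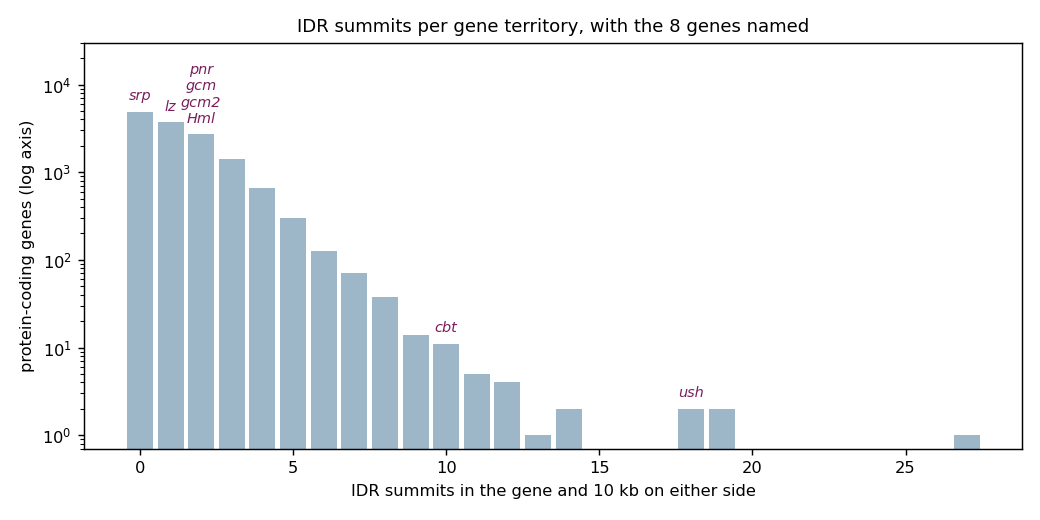
Number of protein-coding genes (log axis) by the count of IDR summits in the gene and 10 kb on either side, with the 8 genes named above their bar. The genes pnr, gcm, gcm2 and Hml sit at 2, lz at 1, srp at 0, cbt at 10 and ush at 18.

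The GATA factor genes srp and pnr lie on the same stretch of 3R, with GATAe, a gut GATA factor gene, between them. At pnr (FBgn0003117, chr3R:16026079-16041796, plus strand, 3 TSSs) an IDR summit lay 123 bp upstream of the first TSS. It had rank 1157, with rank 985 in replicate 1 and 1347 in replicate 2, and its signal values were 421.8, 159.0 and 255.5 in the pooled, replicate 1 and replicate 2 lists. The replicate summits were 11 and 10 bp from it. The other IDR summit of the pnr territory, of rank 3153, lay 14917 bp from the nearest pnr TSS. It was 82 bp upstream of IKKbeta, a kinase gene of the Imd immune pathway, and of lncRNA:CR45212. The 7 pooled summits in the body of pnr were all outside the IDR list, and the strongest of them had rank 7542.

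At srp (FBgn0003507, chr3R:15986152-16004085, plus strand, 4 TSSs) no IDR summit lay in the territory. The pooled list had 15 summits there, replicate 1 had 15 and replicate 2 had 9. The strongest pooled one, 1517 bp upstream of the first srp TSS, had rank 7360, with rank 5590 in replicate 1 and 6947 in replicate 2. Its −log10 q-value was 1.07 in the pooled list, 0.81 in replicate 1 and 1.97 in replicate 2, which passes a q of 0.05 in replicate 2 alone. Only 1 other pooled summit near srp had a partner in both replicates, and 2 had none. The nearest IDR summit was 11740 bp from the gene, in an intron of Hel89B, with rank 1211. At the read depth of these files, which is unknown, weaker binding at srp could not be told from its absence.

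**Figure D4:**
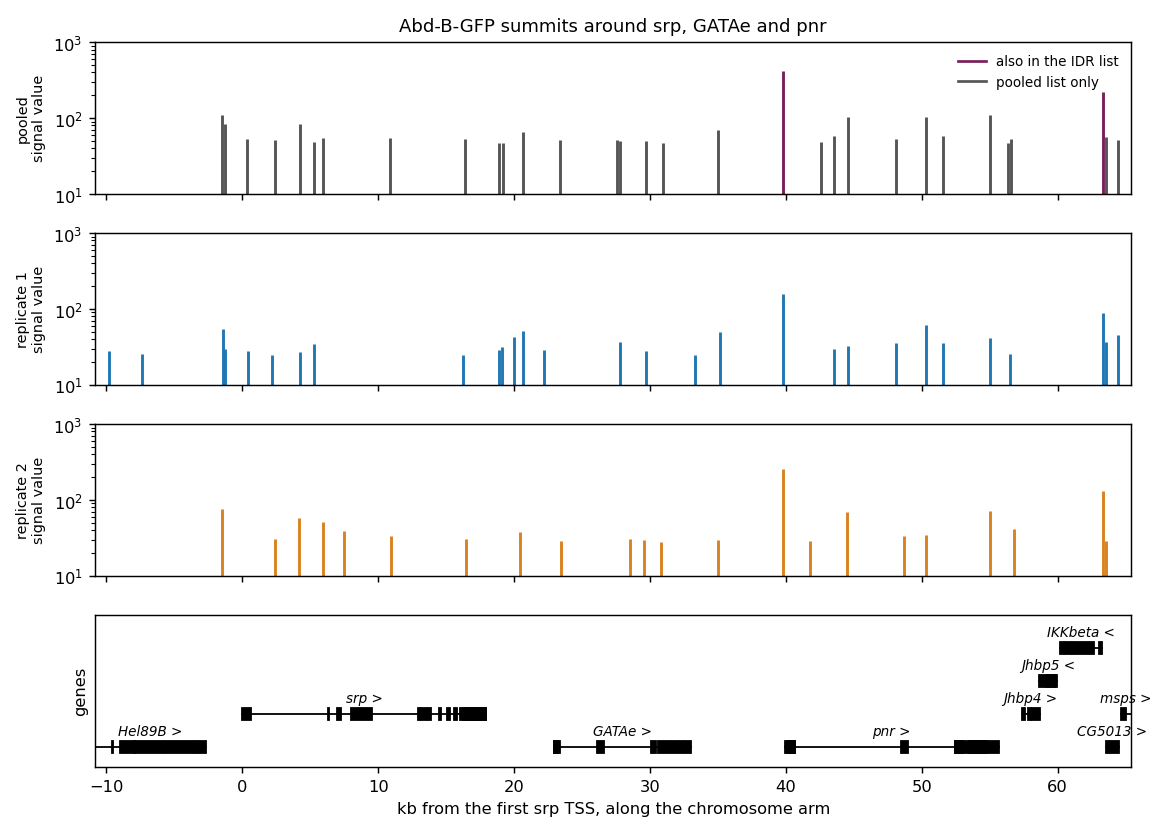
Signal value (log axis) of every summit around srp, GATAe and pnr in the pooled list and both replicates, by distance in kb from the first srp TSS, over the gene models. The purple lines at the pnr promoter and upstream of IKKbeta are the only IDR summits, with signal values of 421.8 and 219.4.

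The crystal cell factor gene lz (FBgn0002576, chrX:9284649-9303636, plus strand, 1 TSS) had 1 IDR summit, 1410 bp upstream of its TSS. This summit was nearer to c11.1, a gene on the other strand, whose TSS was 122 bp away. It had rank 618, rank 455 in replicate 1 and rank 732 in replicate 2, with signal values of 589.4, 238.6 and 361.1. The 3 pooled summits in the body of lz were outside the IDR list, and the strongest pooled summit outside that list in the territory, in an lz intron, had rank 8885.

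The paralogs gcm and gcm2 had 2 IDR summits each, and 3 of these 4 were far from their TSSs. In the territory of gcm (FBgn0014179, chr2L:9579498-9581745, minus strand) both IDR summits lay at brwl. The stronger, of rank 192, had rank 265 in replicate 1 and 169 in replicate 2, with signal values of 994.7, 299.7 and 689.7. It lay 188 bp upstream of a brwl TSS and 11662 bp from the gcm TSS. The weaker, in a brwl exon, had rank 4304, with ranks 2878 and 5676. A summit of rank 100 fell just beyond the territory, 10790 bp from gcm, while that of rank 192 was 9415 bp from the gene and thus inside it.

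At gcm2 (FBgn0019809, chr2L:9608562-9612706, plus strand) an IDR summit lay in the gcm2 intron, 903 bp downstream of the TSS, with rank 4665 and ranks 3895 and 5751 in replicates 1 and 2. The other, 9873 bp upstream and nearest to CG4382, had rank 3960 and ranks 5633 and 6000. Both were thus weak in the IDR list, and the latter was outside the 5033 strongest peaks of either replicate. A stronger summit of rank 1990 lay 10073 bp from the gene, just outside the territory. The strongest pooled summits outside the IDR list had ranks 5206, 55 bp upstream of Mtpalpha near gcm, and 5789, at the start of GlcAT-S near gcm2. The former had a partner within 100 bp in replicate 1, at rank 4863, but none in replicate 2. The latter had ranks 5538 and 6494 in replicates 1 and 2. The IDR list ended at a signal value of 152.7. The weakest summit inside it near these genes had 155.4, in the ush intron at rank 4930, and the strongest outside had 148.5, that of rank 5206.

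The plasmatocyte gene Hml (FBgn0029167, chr3L:13846054-13860001, plus strand, 1 TSS) had an IDR summit 577 bp upstream of its TSS. It had rank 1694, with ranks 1203 and 2008 in replicates 1 and 2, and signal values of 336.3, 144.5 and 199.7. The other IDR summit, of rank 1494, lay in an intron of CG8745, 16554 bp from the Hml TSS, with ranks 886 and 2097. Replicate 1 ranked both higher than replicate 2.

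Counted over the genes, 5 of 8 carried an IDR summit less than 1 kb from a TSS, namely ush, cbt, pnr, gcm2 and Hml, beside 25.0% of all protein-coding genes. Within 500 bp only cbt and pnr had one, 2 of 8, beside 21.8%. In the territory 7 of 8 had one, beside 64.8%, and 8 of 8 had a pooled summit, beside 92.5%. The shares other than that within 1 kb are near the background and say little about these genes. The 5 of 8 within 1 kb did not hold at 500 bp. It comes from genes chosen with earlier results known, so it too carries no test. All 27 IDR summits had a partner within 100 bp in both full replicate lists, beside 92.1% of all IDR summits, a share that the choice of IDR peaks fixes in part. A partner in a full list need not pass a q of 0.05. For the summits of ranks 3065, 4930, 1992 and 3960 the replicate 1 partner did not, with −log10 q-values of 0.578, 0.451, 1.0 and 0.802. Their replicate 2 partners passed, with 3.94, 3.48, 3.94 and 2.54. Among the 5033 strongest peaks of each replicate, 21 of the 27 had partners in both. No share over all IDR summits is given for this stricter rule, and the 92.1% does not apply to it. Outside the IDR list, 14 of 37 pooled summits near ush had partners in both replicates, 5 of 13 near pnr, 4 of 5 near lz, 3 of 11 near gcm2, 1 of 4 near gcm, 2 of 15 near srp and 0 of 2 near Hml. The share over all pooled summits outside the IDR list was 32.1%.

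**Figure D5:**
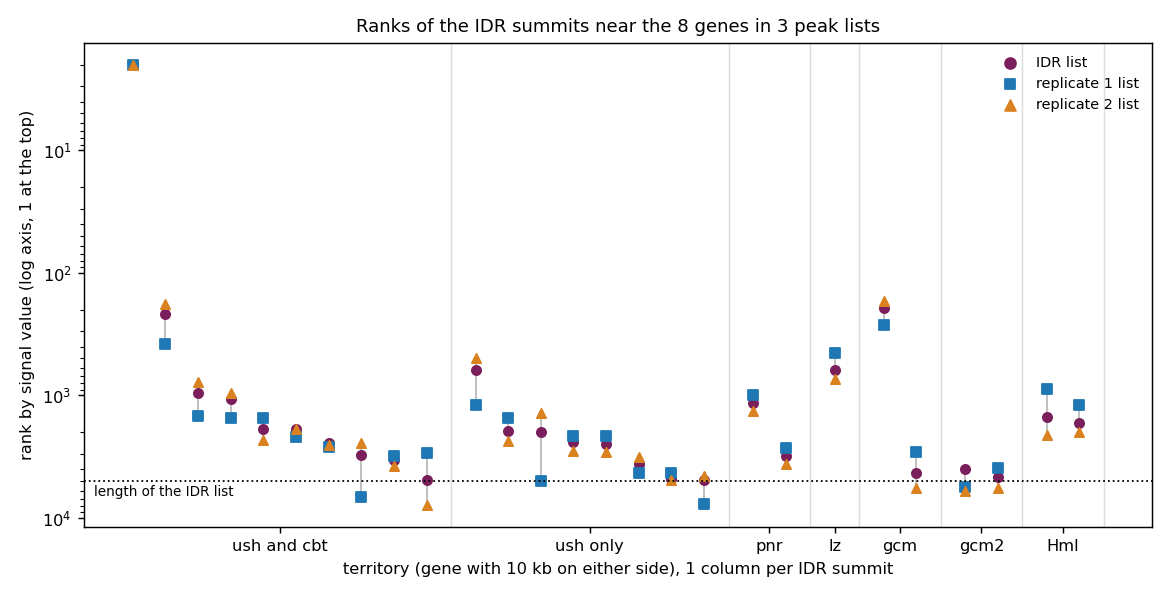
Rank by signal value (log axis, 1 at the top) of each of the 27 IDR summits in the IDR list and both replicates, grouped by territory. The ush and cbt summit at rank 2 stands alone at the top, and symbols under the dotted line lie beyond the 5033 strongest peaks of a replicate.

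The windows printed above differed in the words they held. The strongest summit had 1 match, TTATC, the reverse complement of GATAA, which began 54 bases after the summit, and no Abd-B form. The cbt promoter window held 1 GAGA match, 21 bases after the summit. The pnr promoter held the most, with the DREF word TATCGATA 56 bases after the summit, 2 GATA words that overlap it and 4 GAGA matches, of which 3 overlap. The window upstream of lz held an Abd-B form, CCATAAA on the plus strand, which began 7 bases before the summit, and TTATC, which began 87 bases before it. The rank 192 window in the gcm territory held none of the words. The Hml promoter window held GATAA, 33 bases after the summit.

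Over the 27 windows, an Abd-B form was found in 4 (14.8%), beside 19.2% of all 5033 IDR summits, and the Hox core in 1 (3.7%), beside 19.5%. GATA words were found in 16 (59.3%), beside 54.9%, and in 10 of the 18 ush windows. Runx words were found in 4 (14.8%), beside 7.61%, GAGA words in 8 (29.6%), beside 20.1%, E-boxes in 4 (14.8%), beside 7.05%, and the DREF word in 1 (3.7%), beside 4.09%. With 27 windows each count is small. GC content, which shifts how often such words occur, was 39.7% ± 7.93 (SD over 27 windows) near these genes and 34.9% ± 7.25 over all 5033. The strongest summit's window had 39.8%.

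The wider pathways were read from 7 gene lists, counting IDR summits less than 1 kb from a TSS as promoter summits, beside the 25.0% of all protein-coding genes that had one. Of 12 genes of JNK signalling and dorsal closure, 9 had such a promoter summit (75.0%), led by the JNK kinase gene Mkk4 at rank 44. They went on with cbt at rank 218, the Jun gene Jra at rank 875 and the kinase gene msn at rank 1169. Of 11 genes of sugar sensing by Mondo and its partner, 6 had one (54.5%), among them, beside cbt, the lipase gene bmm at rank 569, bigmax, which encodes the Mondo partner, at rank 1252, and ACC, of fatty acid synthesis, at rank 2624. Of 11 glial genes around gcm, 7 had one (63.6%), but 4 within 500 bp. The leading genes were moody, of the blood-brain barrier, at rank 637, the homeobox gene PHDP at rank 1408, the ETS factor gene pnt at rank 2683 and the adhesion gene Nrg at rank 3155.

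The blood and GATA lists were nearer to the 25.0% of all genes. Of 18 genes of hemocyte specification and signalling, 6 had a promoter summit (33.3%), led by the cyclin gene CycD at rank 586 and Bgb, which encodes a Runx partner, at rank 714. They were followed by ush at rank 1945 and the growth factor receptor gene Pvr at rank 4188. Of 20 genes of differentiated hemocytes, 4 had one (20.0%). These were Hml at rank 1694, Nplp2 at rank 1710, the prophenoloxidase gene PPO3 at rank 1875 and the laminin gene LanA at rank 2956. Of 14 partners and targets of pnr and ush, 4 had one (28.6%). Beside pnr and ush these were the heart homeobox gene tin at rank 1158, next to pnr in the IDR list, and Chi, which encodes a LIM-binding cofactor, at rank 4809. Of the 5 GATA factor genes only pnr had one (20.0%). The lists share genes with each other and hold the 8 genes described here. Over their 84 distinct genes, 33 had a promoter summit, and 25 had one within 500 bp, where the share of all genes was 21.8%. Within 500 bp the list of hemocyte specification and signalling had 3 and that of differentiated hemocytes 2.

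Other intronic summits of like strength were found by taking the highest ranked IDR summits that lay in an intron over 500 bp from every TSS. After ush came HmgD and HmgZ at rank 7, CG32772 at rank 14, CG11050 at rank 15, Trl, which encodes the GAGA factor, at rank 17, and the kinase gene Lk6 at rank 23. Their signal values ran from 2226 to 3041 in the pooled list, below the 3752 of the ush summit. Their ranks ran from 8 to 22 in replicate 1 and from 7 to 25 in replicate 2. All lay between 566 and 1535 bp from the nearest TSS, as did the ush summit at 1400 bp.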

How the data were processed

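Anti-GFP ChIP-seq of Abd-B-GFP embryos was analysed from peak lists on build dm6, per the labels: 1 per replicate, 1 pooled and 1 IDR list, each made with a control file, per the deposited text descriptions. The labels' antibody field gives Abd-B, while their description names anti-GFP. The sources used here name no aligner or peak caller. For each peak the authors' lists give a signal value, whose scale is not given, the −log10 of a q-value and a summit offset. Of 30000 peaks each, 4333 (replicate 1), 8557 (replicate 2) and 6677 (pooled) had a q of 0.05 or less, so a low rank does not show enrichment. All 5033 IDR peaks were the strongest of the pooled list. Most peaks have 1 fixed width per list with the summit at its middle (66.4% of IDR peaks are 390 bp wide), which limits summit positions. The deposited files used here hold no read counts: depth is unknown, and no interval or depth correction was made.

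Ranks follow the signal value, with ties set by q-value and position. Coordinates are 1-based. Genes came from Ensembl release 115 (BDGP 6.54) on 6 main arms, which left out 1 replicate 2 and 1 pooled peak, and sequence from the RefSeq Release 6 genome. A summit was assigned to every territory that held it and counted once in totals. Motifs had to lie whole within 201 bases. The 8 genes, 7 lists and measures were chosen with earlier results of these data known, so no test was run. Of the listed symbols 2 were matched by synonym and 2 were unmatched. Named genes were the 8, those with the TSS nearest to an IDR summit in a territory, the 4 of each list with the highest ranked promoter summit, and the hosts of the 5 next strongest intronic summits. Genes at territory edges, with more summits than ush, or in pooled peaks only were named after their values were seen. Alternatives were stricter lists, each replicate alone, and other flanks, windows, partner distances and summit definitions. The counting functions were tested on simulated data. Python 3.11.15, numpy 2.4.6, pandas 2.3.3 and matplotlib 3.10.9 were used.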

Additional observations from a re-analysis of the deposited data

How the results depend on the processing

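The rank of the ush summit was 2 in every list and also when peaks were ranked by q-value and then signal value. Its distance to the cbt TSS of -1400 bp was -1405 bp from the peak's midpoint and ranged from -1397 to -1391 bp with 1 replicate left out. The 27 IDR summits became 6 among the 1000 strongest peaks, 17 among the 2516 strongest and 14 with no flank. With 1 replicate left out, the 5033 strongest peaks of the other replicate took the place of the IDR list. No agreement between replicates enters those peaks, and 23 to 28 of them lay in the territories. The 5 genes with a promoter summit became 1 among the 1000 strongest and 4 with only the most upstream TSS of each gene. Within 500 bp they became 2, cbt and pnr, beside 21.8% of all protein-coding genes. In the strongest peaks of 1 replicate they numbered 4 to 5. Apart from the 500 bp window, no share of all protein-coding genes is given for these settings. The 114 pooled summits became 61 with no flank. Partners in both replicates fell from 27 to 21 summits within 50 bp, for which no share over all IDR summits is given. Single genes depended more on the settings. Among the 5033 strongest peaks of replicate 2 alone gcm had 1 summit and gcm2 0, and among those of replicate 1 alone 3 and 1. With 20 kb flanks srp had 2 IDR summits, lz 2, gcm 8 and gcm2 4. With no flank pnr, lz, gcm and Hml had 0 and cbt 1, and with 5 kb flanks gcm had 0 and cbt 6. Genes with at least 1 IDR summit thus numbered 3, 6, 7 and 8 with flanks of 0, 5, 10 and 20 kb, a count added after seeing the data. Over all protein-coding genes the shares with one were 11.4%, 50.6%, 64.8% and 79.9%. The pathway lists' 33 genes with a promoter summit became 25 within 500 bp and 39 within 2 kb. For 2 kb no share of all protein-coding genes is given. Abd-B forms were found in 3 of the 27 windows of 50 bp and 7 of 200 bp on either side, and the Hox core in 1 and 4. Wider windows hold more letters, and no share over all IDR summits is given at these widths. The causes were not tested. No paired analysis was possible because there is 1 group. Depth is unknown, so no limit can be put on weaker binding, as at srp.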
